A study of Homo sapiens with 6 samples.

Results

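The S100 genes encode small calcium-binding proteins, and 10 of them, S100P, S100A2, S100A4, S100A6, S100A8, S100A9, S100A10, S100A11, S100A14 and S100A16, are described here in MDA-MB-231 cells with and without a hairpin against ATAD3A. The 10 genes, of 19775 measured through a probe set of their own, were chosen by name with earlier results of this comparison known. All of their probe sets whose only gene symbol was one of these names were taken, which gave 13 of 54613. MDA-MB-231 is a line of invasive breast cancer cells of the triple-negative kind, and ATAD3A is an ATPase of the inner mitochondrial membrane. The knockdown cells carried a stable shATAD3A hairpin and the control cells a stable shGFP hairpin, each delivered in a pLKO.1 lentiviral vector. Both groups were selected for 2 weeks in puromycin at 1 µg/ml, were resistant to it, and were used at passage 2. RNA of each group was hybridised to 3 Affymetrix U133 Plus 2.0 arrays, 6 in all. The labels do not say whether the infected cells were a pool or a clone, how many hairpins were used, or whether the replicates were separate cultures. The p-values therefore reflect only how far these arrays spread, which may be technical variation.

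S100 proteins carry a pair of EF-hand loops and mostly work as dimers. Binding of calcium to the loops exposes a surface that holds on to partner proteins such as annexins, myosin and liprins, so that the family passes calcium signals on to the membrane and the cytoskeleton. Some members are also secreted and act on cell-surface receptors, and several are known for their levels in breast cancer and for roles in cell motility. Nearly all of the genes lie together on chromosome 1, while S100P lies on chromosome 4.

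The start sites of the members fall into those with and those without the common promoter elements, and 4 promoters are shown. S100P and S100A4 are shown because they had the largest difference in each direction. S100A6 and S100A11 were picked by hand among several members with a GC box, so the 4 are no sample of the family. The windows are 300 bases long, from 250 bases before to 50 bases after a start site, and come from RefSeq on GRCh38.p14, where all 10 members matched and had 14 windows. They are written 5′ to 3′ on the strand of the gene, and capitals mark a TATA box (TATAAA) or a GC box (GGGCGG), searched on both strands with overlapping matches counted. S100P lies at chr4:6693628-6693927 on the plus strand, and S100A4 at chr1:153545757-153546056, S100A6 at chr1:153535942-153536241 and S100A11 at chr1:152036955-152037254 on the minus strand.
S100P: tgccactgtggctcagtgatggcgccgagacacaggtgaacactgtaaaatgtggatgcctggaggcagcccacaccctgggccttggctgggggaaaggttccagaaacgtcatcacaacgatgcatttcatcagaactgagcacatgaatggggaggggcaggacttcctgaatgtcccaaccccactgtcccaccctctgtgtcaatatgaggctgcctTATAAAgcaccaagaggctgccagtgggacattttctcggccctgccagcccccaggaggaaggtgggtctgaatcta
S100A4: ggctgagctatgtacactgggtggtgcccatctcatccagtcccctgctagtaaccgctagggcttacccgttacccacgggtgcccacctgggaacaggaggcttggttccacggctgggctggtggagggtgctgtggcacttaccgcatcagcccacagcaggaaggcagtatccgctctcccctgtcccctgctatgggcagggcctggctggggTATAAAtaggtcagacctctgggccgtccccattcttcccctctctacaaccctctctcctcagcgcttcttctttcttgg
S100A6: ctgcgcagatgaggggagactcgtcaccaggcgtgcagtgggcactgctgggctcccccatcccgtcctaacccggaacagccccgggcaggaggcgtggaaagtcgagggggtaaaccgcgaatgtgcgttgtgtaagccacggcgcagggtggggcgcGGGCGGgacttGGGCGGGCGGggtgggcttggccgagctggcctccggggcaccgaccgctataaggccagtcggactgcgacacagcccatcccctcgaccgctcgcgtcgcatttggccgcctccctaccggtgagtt
S100A11: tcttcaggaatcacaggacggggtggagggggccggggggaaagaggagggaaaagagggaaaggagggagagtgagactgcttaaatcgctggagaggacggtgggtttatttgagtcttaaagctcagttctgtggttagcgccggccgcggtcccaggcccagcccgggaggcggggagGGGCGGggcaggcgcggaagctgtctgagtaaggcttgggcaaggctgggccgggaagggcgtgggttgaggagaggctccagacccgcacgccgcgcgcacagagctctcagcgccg

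The S100P window held TATAAA 28 bases before the start site and the S100A4 window held it 31 bases before. Neither of these windows held a GC box. The S100A6 window held 3 GC boxes, of which 2 overlap, the first of them 90 bases before the start site, and the S100A11 window held 1 at 68 bases before it. Among the members not shown, TATAAA was found 29 bases before the start of S100A9 and of 1 S100A8 window, and GGGCGG in windows of S100A9, S100A10 and S100A16. No match to either was found in the windows of S100A2 and S100A14. Over all 35116 windows of this length, 11.5% held TATAAA and 45% held GGGCGG. A match is a string of letters in the window and not a measured binding site.

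All levels are log2 values as deposited by the authors, changes are knockdown minus control on that scale, and each error is either the SD of 3 arrays or the SE from limma. The number of arrays limits the precision. About 48.5% of genes lay in a low mode below 4.79, where readings are close to background, a boundary set after seeing the data. Of all genes, 33.6% passed at a limma adjusted p of 0.05, 19.7% higher and 13.9% lower in knockdown. Of the 10348 genes with a group mean above the low mode, 3789 were called higher and 2646 lower. Array medians lay between 3.16 and 3.23. ATAD3A fell from 7.77 ± 0.038 to 7.28 ± 0.21 (SD, n = 3), by 0.49 on the log2 scale (limma adjusted p = 0.0129), on 1 probe set of a type that may cross-hybridise. Of 6 markers that basal B breast cancer lines carry, 6 lay above the low mode, and their mean level was 14.11 to 14.14 in control and 13.84 to 13.86 in knockdown arrays, with 5 of the 6 called lower. ESR1 and PGR lay in the low mode, and ERBB2 was at 7.80 in control and 8.31 in knockdown (limma adjusted p = 0.00251).

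In knockdown arrays S100P, S100A11 and S100A10 were higher, S100A4, S100A2 and S100A6 were lower, S100A16 overlapped between the groups, and S100A8, S100A9 and S100A14 lay in the low mode throughout. The changes ran from 5.18 for S100P to -2.95 for S100A4, with a median of -0.028 over the 10 genes against -0.00084 over all genes. The fit called 3 members higher and 3 lower, where 19.7% and 13.9% of all genes were called. Groups did not overlap for the same 3 and 3 genes, and over all genes they did not overlap upward for 24.4% and downward for 17.6%. At least 2-fold, 1 member was higher and 2 were lower, against 3.41% and 2.43% of all genes. Over all genes 42% had groups apart in either direction. By probe set, 4 of 13 were called higher and 4 lower, where 22.4% of all probe sets were called, 12% higher and 10.5% lower. The same numbers, 4 and 4, had groups apart, against 33.2% of all probe sets, 17.4% upward and 15.8% downward, and 1 was at least 2-fold higher and 3 lower, against 2.15% and 2.01%. These counts describe the choice of members and carry no test. In RNA from whole cultures, fewer cells of a type and less RNA per cell cannot be told apart.

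**Figure D1:**
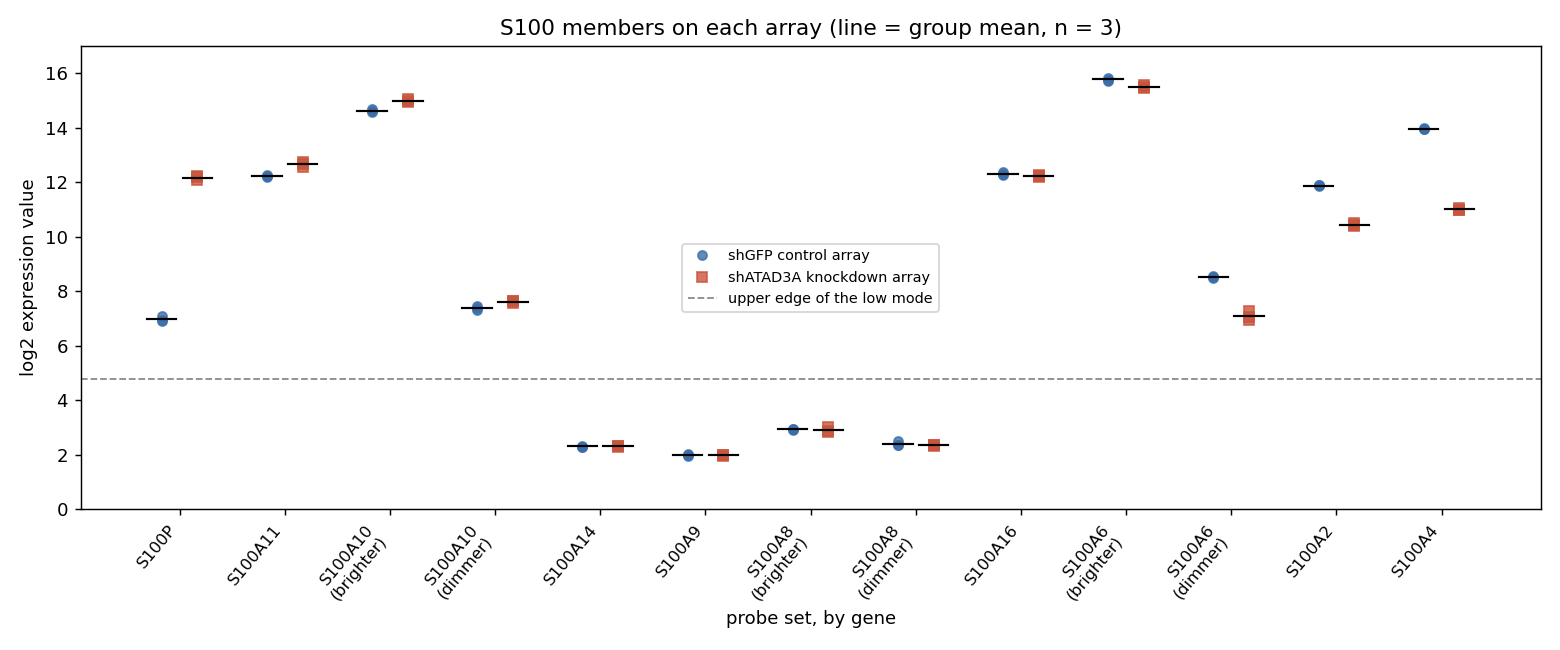
Log2 expression value on each array for the 13 probe sets of the 10 genes, with shGFP control arrays as circles, shATAD3A knockdown arrays as squares, group means (n = 3) as black lines and the upper edge of the low mode, 4.79, as a dashed line. S100P knockdown arrays sit near 12.2 and its control arrays near 6.99, S100A4 and S100A2 sit lower in knockdown, and the probe sets of S100A14, S100A9 and S100A8 lie below the dashed line in both groups.

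S100P, a secreted and intracellular member that binds ezrin and signals through the receptor RAGE, had the largest difference of the 10. It read 6.95, 6.92 and 7.10 on the control arrays and 12.09, 12.22 and 12.20 on the knockdown arrays. Every knockdown array was at least 4.99 above every control array, a gap far beyond the spread within either group. The mean went from 6.99 ± 0.096 to 12.17 ± 0.069 (SD, n = 3), a change of 5.18 ± 0.061 (SE) or 36.1-fold. Among all 19775 genes this change ranked 10 from the highest. S100P was above the low mode on all 6 arrays, so its transcript was already measurable in control cells.

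S100A4, also called metastasin, which binds non-muscle myosin and is tied to cell motility, had the largest difference in the other direction. Its control arrays read 13.94, 13.98 and 13.96 and its knockdown arrays 10.997, 11.051 and 10.999. The groups were 2.89 apart at their nearest, and the arrays within each group lay close together. The mean went from 13.96 ± 0.017 to 11.02 ± 0.031 (SD, n = 3), a change of -2.95 ± 0.028 (SE), a 7.70-fold lower level. S100A4 ranked 53 from the lowest of all genes. Its only probe set is of the s_at type, whose probes may match more than 1 transcript, and it remained well above the low mode in knockdown cells.

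S100A2, a mainly nuclear member that binds p53, was lower as well. It read 11.89, 11.87 and 11.88 on the control arrays and 10.42, 10.51 and 10.38 on the knockdown arrays. The groups were 1.36 apart at their nearest, with the knockdown arrays more spread than the control arrays. The change was -1.44 ± 0.038 (SE), from 11.88 ± 0.012 to 10.44 ± 0.065 (SD, n = 3), so that 36.8% of the control level was left. It ranked 248 from the lowest of all genes.

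S100A6, or calcyclin, which binds annexins and the calcyclin-binding protein, was lower on both of its probe sets but by very different amounts. The brighter probe set read 15.84, 15.75 and 15.72 in control and 15.46, 15.56 and 15.49 in knockdown, 0.15 apart at their nearest. Its change was -0.26 ± 0.046 (SE), to 83.3% of control. The dimmer probe set read 8.55, 8.50 and 8.53 in control and 7.05, 6.96 and 7.26 in knockdown, 1.24 apart at their nearest. Its change was -1.43 ± 0.079 (SE), to 37.0% of control. The direction was shared and the size was not. The control mean of the brighter probe set lay 0.81 below the highest value of any array, and whether that compresses its change was not tested. With the probe sets averaged, S100A6 changed by -0.85.

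S100A10, the p11 subunit that pairs with annexin A2 and binds tissue plasminogen activator, was higher on both probe sets. The brighter one read 14.68, 14.58 and 14.63 in control and 14.94, 14.98 and 15.06 in knockdown. The groups were 0.26 apart at their nearest and the change was 0.36 ± 0.043 (SE), or 1.29-fold. The dimmer one read 7.30, 7.39 and 7.46 in control and 7.63, 7.63 and 7.57 in knockdown. Its groups were 0.10 apart and its change was 0.22 ± 0.048 (SE), or 1.17-fold, so both probe sets were higher by a small amount. S100A11, or calgizzarin, which binds annexin A1, read 12.24, 12.20 and 12.25 in control and 12.57, 12.67 and 12.74 in knockdown. Its knockdown arrays all lay above its control arrays, 0.31 apart at the nearest. The change was 0.43 ± 0.048 (SE), or 1.34-fold. In order over all genes S100A11 ranked 2355 and S100A10 2749 from the highest, so changes of this size were common in the comparison.

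S100A16, a broadly expressed member, read 12.38, 12.26 and 12.31 in control and 12.19, 12.27 and 12.22 in knockdown. The groups overlapped, and its change of -0.089 ± 0.043 (SE) left 94.0% of the control level. It is the 1 member above the low mode whose groups were not apart.

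S100A8 and S100A9, which pair as calprotectin in neutrophils and monocytes, and S100A14, an epithelial member, lay in the low mode in both groups. S100A8 read 2.91, 2.96 and 2.97 in control and 3.01, 2.83 and 2.89 in knockdown on its brighter probe set, a change of -0.037 ± 0.052 (SE). The other S100A8 probe set changed by -0.052 ± 0.046 (SE). S100A9 read 1.97, 1.99 and 2.03 in control and 2.01, 1.94 and 1.98 in knockdown, a change of -0.019 ± 0.031 (SE). S100A14 read 2.30, 2.34 and 2.30 in control and 2.32, 2.31 and 2.31 in knockdown, a change of 0.0023 ± 0.024 (SE). The groups overlapped for each of these 4 probe sets. Of 9 measured myeloid markers 0 lay above the low mode, and their mean level was 2.60 to 2.67 in control and 2.58 to 2.64 in knockdown arrays, with LYZ at a change of -0.18 (limma adjusted p = 0.0087). Of 10 measured keratinocyte markers only KRT10 lay above it, and that mean level was 3.20 to 3.24 in control and 3.19 to 3.25 in knockdown arrays.

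Of the 11 other S100 genes listed, 10 had a probe set of their own and only S100A13 and S100A3 lay above the low mode. S100A13, which helps release growth factors by a non-classical route, fell from 11.69 ± 0.10 to 11.10 ± 0.13 (SD, n = 3), by 0.59 on the log2 scale (limma adjusted p = 0.00189). Its groups did not overlap. The dimmer one of S100A13 was in the low mode, and with both averaged the change was -0.30. S100A3, known from hair cuticle, was at 7.95 ± 0.17 in control and 7.40 ± 0.41 in knockdown (SD, n = 3). Its change of -0.56 did not pass (limma adjusted p = 0.102), with a 95% interval of -1.08 to -0.04 before adjustment, and it passed without knockdown replicate 2 (limma adjusted p = 0.012). S100G, or calbindin-D9k, read 2.64, 2.78 and 3.10 in control and 3.33, 4.82 and 4.43 in knockdown. Its change was 1.36 (limma adjusted p = 0.0386), but both means lay in the low mode and the call was lost in 6 of 13 alternatives, among them without any 1 control array (adjusted p up to 0.117) and without knockdown replicate 2 or 3 (0.0878 and 0.122). S100A1, S100A5, S100A7, S100A7A, S100A12, S100B and S100Z lay in the low mode and did not pass.

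**Figure D2:**
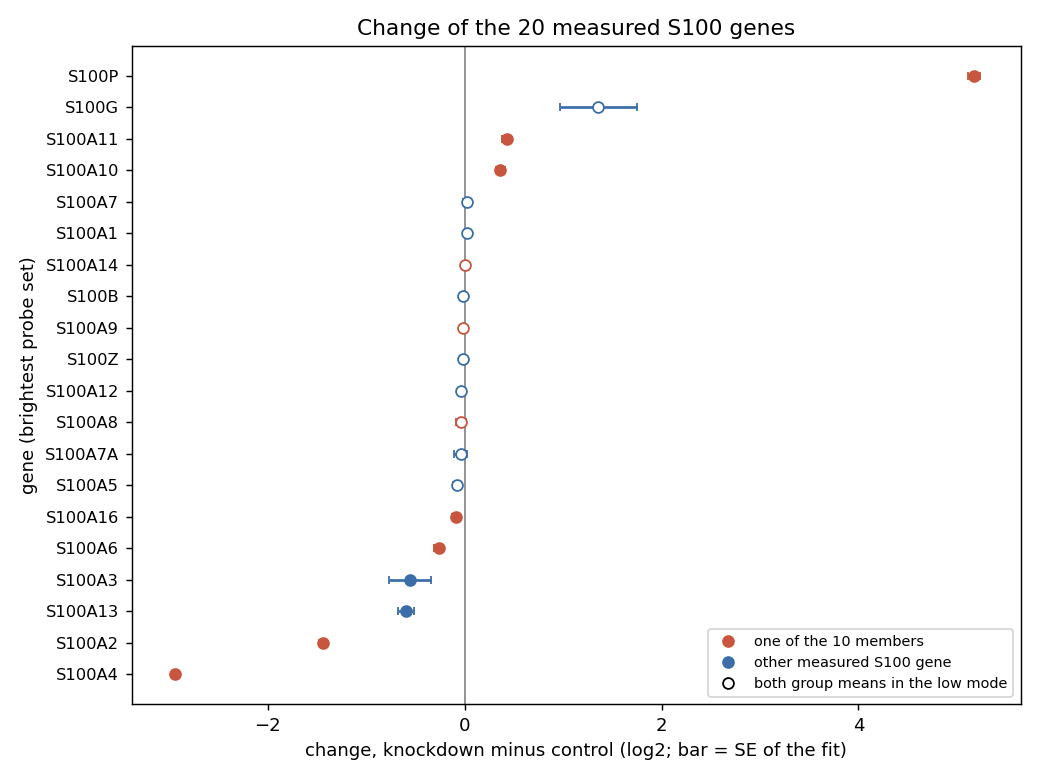
Change of each of the 20 measured S100 genes on its brightest probe set, knockdown minus control on the log2 scale, with the SE of the fit over 3 and 3 arrays as bars. The 10 members described here are red, the other S100 genes blue, and open circles have both group means in the low mode. S100P stands at 5.18 and S100A4 at -2.95, and the open circles lie close to 0 except for S100G at 1.36.

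Along chromosome 1, higher and lower members stood at different ends of the S100 cluster. In RefSeq gene order, S100A10 and S100A11 stand at one end of the cluster, followed by genes of the skin barrier, and the other 7 members stand at the other end, in the order S100A9, S100A8, S100A6, S100A4, S100A2, S100A16 and S100A14. Both genes at the first end were higher, by 0.36 and 0.43. At the other end, S100A6, S100A4 and S100A2 were lower, with S100A5 and S100A3 lying among them, while S100A16 overlapped and S100A13 fell. Between these ends lie 29 other measured genes, with fused-type S100 genes such as FLG among them. Of these 29, 2 rose, 0 fell and 27 did not pass, with a median of -0.016, where 19.7% and 13.9% of all genes were called. Only 2 of the 29 lay above the low mode. FLG, which encodes filaggrin, itself a fused-type S100 protein of the skin, rose from 7.94 to 8.68, a change of 0.74 (limma adjusted p = 0.00105). CCDST, a long noncoding RNA gene whose span covers that of FLG, rose by 0.35 (limma adjusted p = 0.0493). The 2 genes that rose thus overlap in position. The CCDST call was lost in 8 of 14 alternatives, 4 of which left out control replicate 3 or 1 of the knockdown arrays (up to 0.145). Of the 7 fused-type S100 genes listed, 5 were measured and FLG was the only one that passed.

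**Figure D3:**
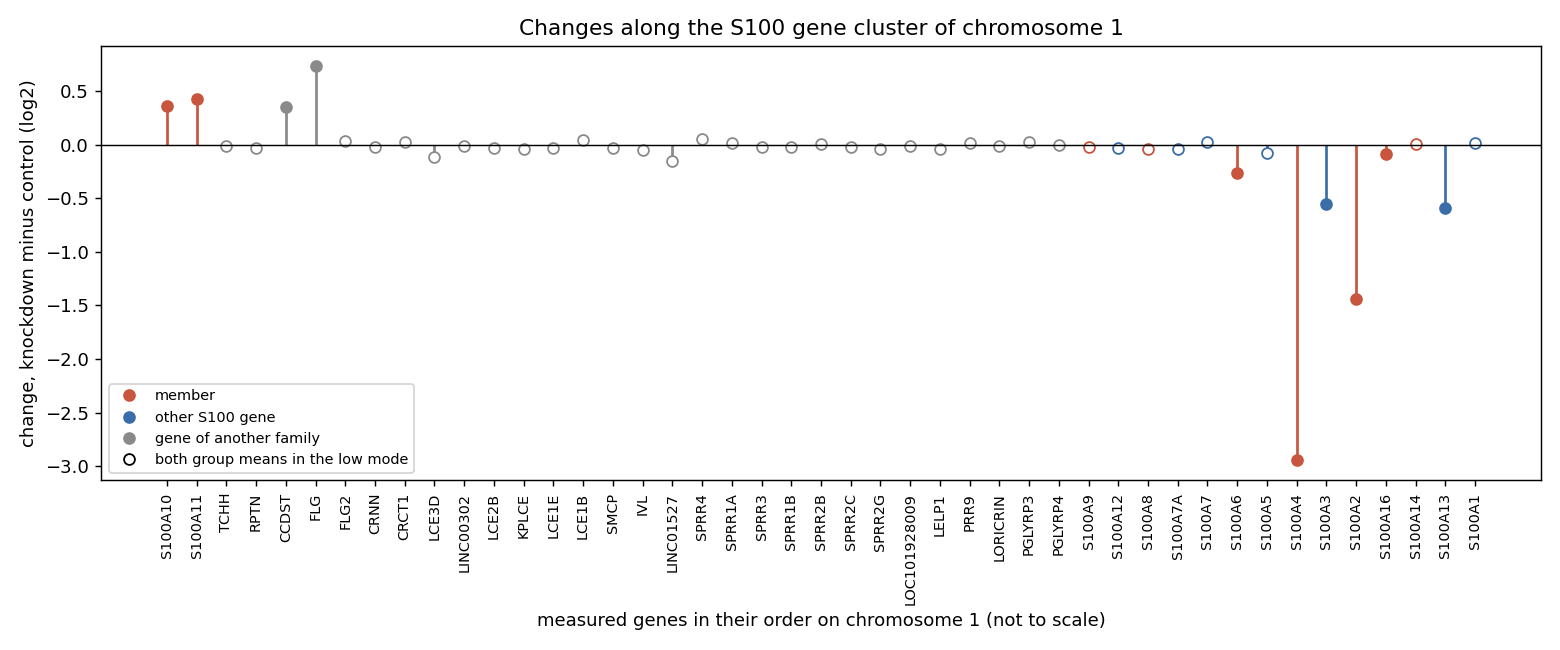
Change of the 45 measured genes of the S100 cluster in their order on chromosome 1, not to scale. Members are red, other S100 genes blue, and the remaining genes, fused-type S100 genes included, grey. Open circles are genes with both group means in the low mode. Each gene is drawn on its brightest probe set. On these, S100A4 at -2.95 and S100A2 at -1.44 stand among S100 genes with smaller or no called change. The dimmer S100A6 probe set, not drawn, changed by -1.43. Most genes in the middle of the cluster are open circles near 0.

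The genes flanking the members, 10 measured on either side that are no S100 gene other than the fused type, were read in the same fit. Of all genes in that fit, 19.7% were called higher and 13.9% lower. Around S100A10 and S100A11, 6 of 20 rose and 0 fell, with a median of 0.014 and a highest change of 1.53 for CGN, the tight junction protein cingulin. The gene next to them on one side, THEM4, a thioesterase, rose by 0.36 (limma adjusted p = 0.00177). On the other side TCHH, a fused-type S100 gene, lay in the low mode and changed by -0.010 (limma adjusted p = 0.901). Around the other chromosome 1 members 1 of 20 rose and 1 fell, with a median of 0.0010. There PGLYRP4 changed by -0.0013 and lay in the low mode. CHTOP, an mRNA export factor on the far side of S100A13 and S100A1, had a change of 0.13 that did not pass (limma adjusted p = 0.0714) and was -0.18 with its probe sets averaged. On chromosome 4, the 20 genes flanking S100P included 6 that rose and 4 that fell, with a median of 0.015 and changes from -1.10 for AFAP1-AS1 to 0.63 for TADA2B. The adjacent LINC02481 changed by 0.0080 and did not pass. MRFAP1L1 on the other side fell by 0.19 (limma adjusted p = 0.0276), a call lost without any 1 of the arrays except knockdown replicate 3 (up to 0.093).

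Among binding partners of S100 proteins, mostly intracellular but with the secreted PLAT and PLG, 16 of 17 were measured. Of these, 3 rose, 2 fell and 11 did not pass, with a median of -0.036. The shares over all genes were 19.7% higher and 13.9% lower. The largest change was in PLAT, tissue plasminogen activator, a protease that S100A10 holds at the cell surface. PLAT read 13.11, 13.08 and 13.07 in control and 10.63, 10.66 and 10.59 in knockdown, with no overlap. It fell by 2.46 on the log2 scale (limma adjusted p = 4.69e-07) to 18.1% of control, on an s_at probe set. ANXA2, the annexin that pairs with S100A10, was at 15.17 in control and 15.18 in knockdown, a change of 0.0058 with a 95% interval of -0.11 to 0.13 (limma adjusted p = 0.971). AHNAK, a scaffold that binds S100A10 with annexin A2, changed by 0.0032, with an interval of -0.12 to 0.12 (limma adjusted p = 0.982). MYH9, the non-muscle myosin heavy chain that S100A4 binds, changed by -0.043 with an interval of -0.17 to 0.08 (limma adjusted p = 0.672). EZR, or ezrin, a partner of S100P, had a change of 0.12 that did not pass on its brightest probe set (limma adjusted p = 0.061). Another EZR probe set passed at 0.18 and a further one at -0.37 (limma adjusted p = 0.0103 and 0.00266 over all probe sets). The remaining EZR probe sets did not pass and also differed in sign.

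The other partners that passed moved by less. SUGT1, a co-chaperone that S100A6 binds, rose by 0.25 (limma adjusted p = 0.0015), but its probe set that is neither s_at nor x_at gave -0.0032. ANXA1, a partner of S100A11, rose by 0.17 (limma adjusted p = 0.0133), a call lost without control replicate 3 (0.0534), with a replicate block (0.0633) and with probe sets averaged, where the change was 0.027. CACYBP, the calcyclin-binding protein, rose by 0.12 (limma adjusted p = 0.0201), a call lost in 9 of 14 alternatives, 4 of which left out control replicate 2 or 3 or knockdown replicate 2 or 3 (up to 0.0897). ANXA6 fell by 0.29 (limma adjusted p = 0.00386), and its call was lost without s_at and x_at probe sets, where the change was -0.0060.

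Of 10 receptors and co-receptors of secreted S100 proteins 9 were measured, of which 5 rose and 2 fell, with a median of 0.29. Over all genes 19.7% were called higher and 13.9% lower. A group mean above the low mode was found for 6 of the 9, and calls were more common among such genes, 3789 higher and 2646 lower of 10348. AGER, which encodes RAGE, the receptor tied to S100P and S100A8 with S100A9, lay in the low mode in both groups and did not pass (limma adjusted p = 0.815). TLR4, a receptor of S100A8 with S100A9, fell from 9.34 to 3.86 (limma adjusted p = 7.39e-06), from above to within the low mode, on an x_at probe set. Its 2 next brightest probe sets, of the s_at type, also fell, with changes of -5.05 and -3.24. The dimmest one, the only TLR4 probe set that is neither s_at nor x_at, lay in the low mode in both groups and changed by -0.64. LY96, the co-receptor MD-2 of TLR4, rose from 7.19 to 7.96, a change of 0.76 (limma adjusted p = 0.00318), so the receptor and its co-receptor went in opposite directions. CD14 fell by 1.60 with both means in the low mode (limma adjusted p = 0.000596). BSG, or basigin, a receptor of S100A9, rose by 0.87 (limma adjusted p = 0.000338). MCAM, a receptor of S100A8 with S100A9, rose by 1.10 on an x_at probe set (limma adjusted p = 7.73e-06), while its other one, in the low mode, changed by 0.051. ALCAM and NPTN, adhesion molecules that bind S100A8 or S100A9, rose by 0.40 and 0.29 (limma adjusted p = 0.000464 and 0.00126). With its probe sets averaged ALCAM changed by 0.21, and its dimmest probe set, above the low mode, changed by -0.019.

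Of 10 transcription factors tied to S100 genes 9 were measured, of which 4 rose and 0 fell, with a median of 0.063, where 19.7% and 13.9% of all genes were called. HIF1A, the oxygen-regulated factor, rose by 0.54 from 14.06 (limma adjusted p = 0.000559). CEBPB and CEBPD, of the C/EBP family tied to S100A8 and S100A9 in myeloid cells, rose by 0.33 and 0.39 (limma adjusted p = 0.00103 and 0.00378), and the CEBPD call was lost without s_at and x_at probe sets (0.12). TCF7L2, which acts with beta-catenin, rose by 0.36 (limma adjusted p = 0.00189), and CTNNB1, beta-catenin itself, a factor tied to S100A4, had a change of -0.11 that did not pass on the brightest probe set (limma adjusted p = 0.136). Its 2 dimmer probe sets, above the low mode, both had a change of -0.46 and passed (limma adjusted p = 0.0291 and 0.0101 over all probe sets), and with its probe sets averaged CTNNB1 changed by -0.35 and passed (0.00796). TCF7L2 changed by 0.21 with its probe sets averaged.

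Other EF-hand genes moved in both directions, with 3 of 20 measured rising and 8 falling, a median of -0.020, and 24 listed. Among all genes 19.7% were called higher and 13.9% lower. EFHD1, a mitochondrial EF-hand protein, rose from 5.02 to 6.66, a change of 1.65 (limma adjusted p = 9.57e-05). Grancalcin, GCA, and the Golgi protein SDF4 rose by 0.51 and 0.48 (limma adjusted p = 0.00214 and 0.000195). CALB2, or calretinin, fell from 6.78 to 4.95, by 1.83 on the log2 scale (limma adjusted p = 0.00105). The reticulocalbin RCN1 and calumenin, CALU, of the secretory pathway, fell by 0.77 and 0.45 (limma adjusted p = 9.51e-05 and 0.00107). CALU fell by 0.97 on its probe set that is neither s_at nor x_at.

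**Figure D4:**
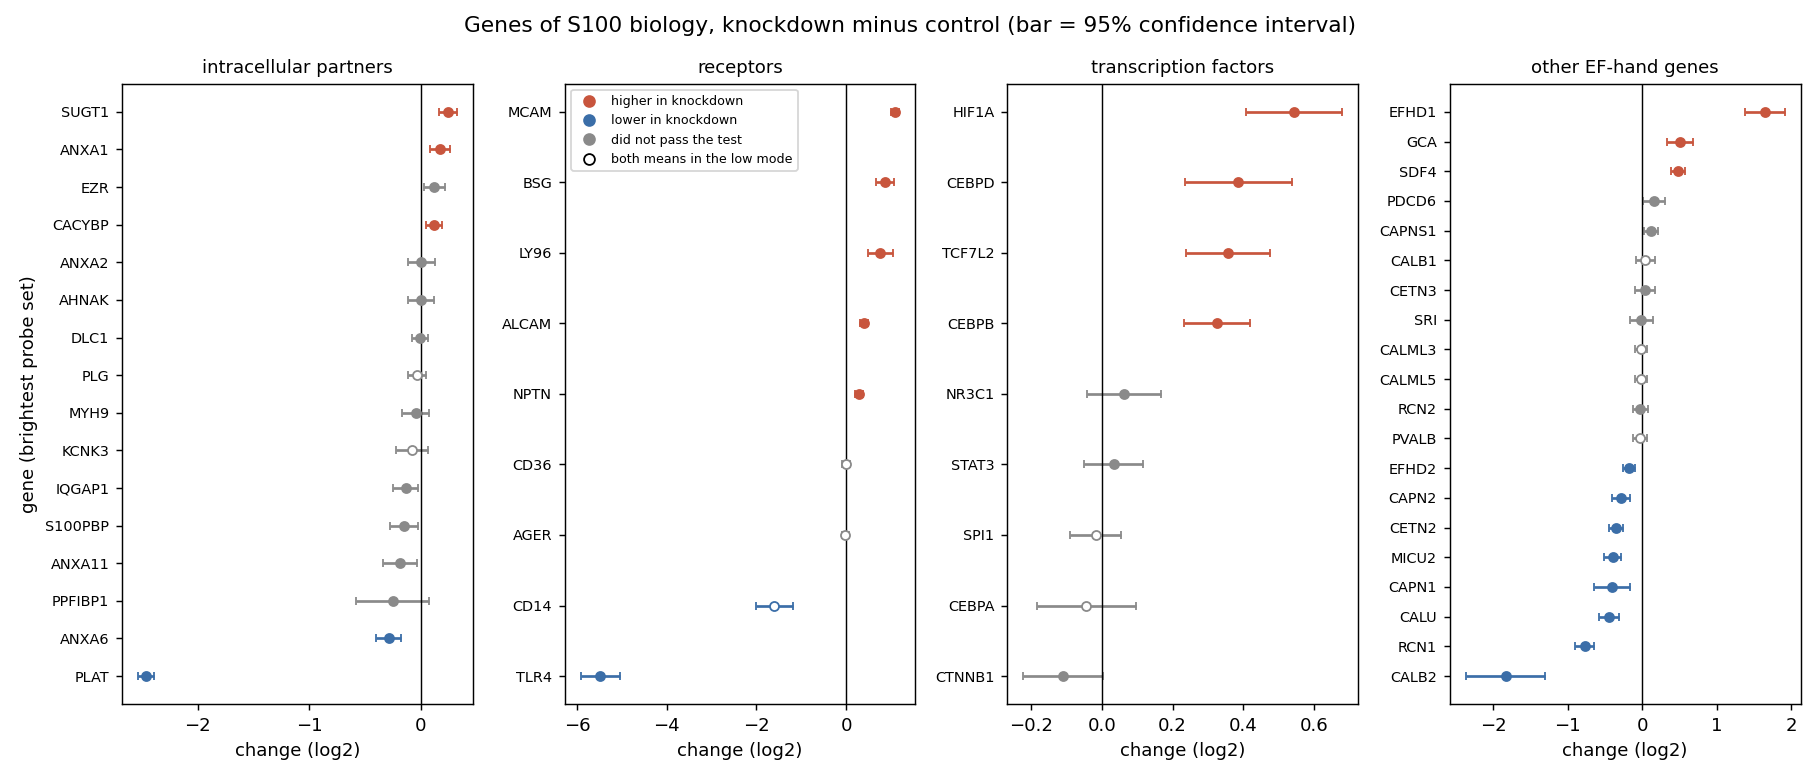
Change of the measured genes of 4 lists, knockdown minus control on the log2 scale, with 95% confidence intervals as bars, red and blue for genes that passed higher or lower, grey for those that did not, and open circles for both means in the low mode. The panels have different horizontal scales, and the panel of intracellular partners also holds the secreted PLAT and PLG. PLAT at -2.46 stands apart from the other partners, TLR4 at -5.48 from the other receptors, and EFHD1 at 1.65 and CALB2 at -1.83 bound the EF-hand genes.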

How the data were processed

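Per the labels' protocols, 250 ng of total RNA from MDA-MB-231 cells was biotin-labelled and hybridised to 6 arrays, 3 per group by their titles. The authors deposited 1 value per probe set and array, on a log2 scale read from the values, between 0.826 and 16.6. The summary method was not given in the sources used here, and per the submitters' processing notes Partek was among the tools. Of 54675 probe sets 62 were controls, 41091 had 1 symbol in the platform annotation of 2016, 1801 several and 11721 none. The RefSeq gene table of GRCh38.p14 gave gene order and was used to check symbols, of which 0 were updated and 54 IDs were not found. Each gene was read on its brightest probe set with 1 symbol, without a filter. Groups were compared with limma 3.58.1 under R 4.3.3 (lmFit and eBayes without covariates, two-sided). The p-values were adjusted by Benjamini-Hochberg over all genes at 0.05, or over all probe sets where probe sets were called. The SE of members came from the fit over all probe sets. The fit was tested on simulated data. The lower limit of the upper range, 4.79, comes from the means of all non-control probe sets. It is the point of lowest density between their main peak and a fixed upper limit.

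The members and lists were chosen with earlier results of these data known, so members carry no p-value. Named were all members, other S100 genes, ATAD3A, adjacent genes and, per list, up to 3 largest rises and 3 largest falls that passed; further genes were named after their values were seen, for their role beside a member. Alternatives covered normalization, probe set choice, filters, variance prior, array weights, a replicate block and leaving out each array. Protein sequences were not used here.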

Additional observations from a re-analysis of the deposited data

How the results depend on the processing

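With probe sets of a gene averaged, the change was 0.29 for S100A10 and -0.85 for S100A6, by construction, since their other probe sets enter. For the other 8 members no alternative moved the change beyond the spread between replicates. Ranges were 5.14 to 5.23 for S100P, -2.96 to -2.94 for S100A4, -1.48 to -1.41 for S100A2 and 0.39 to 0.47 for S100A11. Much of this was fixed in advance. Leaving out 1 of 3 arrays always shifts a mean by less than that spread. A replicate block, another variance prior or the filter on dimmer genes leaves the change itself unaltered, as does averaging for a gene with 1 probe set. No value could be had for S100A4 without s_at and x_at probe sets, or for S100A8, S100A9 and S100A14 with dimmer genes left out. Without s_at and x_at probe sets 7 neighbouring genes rose, 1 partner rose and 1 fell, 2 receptors rose, EFHD2 changed by 0.16 and SUGT1 by -0.0032. With averaged probe sets 1 partner rose and 7 fell, 5 EF-hand genes rose, 1 transcription factor, CTNNB1, fell, and CHTOP changed by -0.18. Array weights gave 5 rising EF-hand genes, quantile normalization 5 falling partners, and leaving out dimmer genes 1 falling receptor. The cause was not tested beyond the probe sets and genes each setting leaves out. Leaving out each array in turn gave 1 to 4 rising partners, the lowest without control replicate 3. Deviations of arrays with the same replicate number had correlations of -0.24, -0.157 and 0.047, and only number 3 correlated best with its own. Deviations from means of 3 arrays depend on each other, so these values cannot decide whether the numbers pair the arrays. A replicate block gave 3513 genes higher and 2544 lower, 1 rising partner and 3 falling neighbouring genes. It left the members' changes as they were by construction, since both groups hold the same replicate numbers. An adjusted p of 0.01 left 2967 genes higher and 2090 lower, and with only 1-symbol probe sets tested 10830 passed, against 12240 of all. Signal over background limits S100A8, S100A9, S100A14 and S100G, and 3 arrays a group limit the precision of every value.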
